A study of Mus musculus with 6 samples.

Results

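The comparison of Tut7-/- with wild-type macrophages after 2 h of LPS covered 115 genes, those with 10 or more reads over the 2 libraries. They were 115 of the 434 genes with a read in either library, and of the 964 with a read in any of the series' 6 libraries. The 2 groups were BMDMs, primary macrophages derived from marrow progenitors in culture, of female C57BL/6J mice aged 7 weeks, wild type or Tut7-/-, given the agent LPS for 2 h. Progenitors of both genotypes were differentiated for 7 days with 20% L929 cell-conditioned medium, then kept overnight with M-CSF at 10 ng/ml. The other 4 libraries were untreated cells (Ctrl) and cells after 4 h of LPS, 1 for each genotype. The knockout was made in the germline by CRISPR/Cas9, so all cells of the mice lacked Tut7 and not macrophages alone. The number of mice behind a library is not stated in the labels or the methods. There was 1 library per genotype and time, although the submitters mention duplicates, so a difference between genotypes cannot be told apart from a difference between libraries. No p-value is given for the pair.

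LPS is a component of the bacterial outer membrane that macrophages sense through Toll-like receptor 4. The receptor switches on NF-kB and a wave of inflammatory cytokines, and through a second branch the interferon response. Zc3h12a encodes Regnase-1, an endoribonuclease that cuts the mRNAs of cytokines such as Il6 and so restrains inflammation. TUT7 is a terminal uridyltransferase: it adds uridines to RNA 3′ ends, a modification that marks RNA for decay. The study compared the genotypes to ask how the loss of this enzyme affects transcripts of the LPS response, Zc3h12a and Il6 among them. It used the present kind of library to examine uridines at the 3′ ends of Zc3h12a and Il6, and measured mRNA levels by RT-qPCR and RNA-seq. The gene counts compared here show neither uridylation nor mRNA level.

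Libraries were made by gene-specific TAIL-seq. A linker was ligated to the 3′ end of each RNA, and the ends of chosen transcripts were amplified from a primer inside the 3′ UTR to the linker. A count is therefore a share of a pool that PCR amplified, not an expression level, and counts cannot be compared between genes amplified by different primers. The methods text gives forward primers for Zc3h12a and Il6 only. For most genes described below no primer is given there, and how their reads entered the pool is not stated. In such bulk samples fewer cells of a type and less RNA per cell cannot be told apart. The sites of the Il6 and Zc3h12a forward primers are shown because they set which molecules were counted, and the capitals mark the final 6 bases.
Il6 primer: tgtttagactgtcttcaaacaAATAAA
Zc3h12a primer: tttaaatgaaaaaggttgacaaAATAAA
Both ended on AATAAA, the poly(A) signal that directs cleavage of the nascent transcript. In mm10 the Il6 site was chr5:30019929-30019955 on the plus strand, in exon 5 of 5 and 20 bases before the annotated transcript end. The Zc3h12a site was chr4:125118641-125118668 on the minus strand, in exon 6 of 6 and 218 bases before the annotated end. Each whole sequence occurred in transcripts of 1 gene only. The signal AATAAA itself occurred on the sense strand in the last 300 bases of 83.0% of the 100 protein-coding genes measured, against 72.6% of all 21877 protein-coding genes. The last 8 bases of the Il6 primer, CAAATAAA, which contain that signal, occurred in 9.0% and 7.37%, and those of the Zc3h12a primer, AAAATAAA, in 17.0% and 15.9%. Among the genes with a larger share in Tut7-/-, the signal was present in 26 of 30, and among those with a smaller share in 27 of 33.

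The wild-type library held 44626 reads and the Tut7-/- library 55922, within the 21408 to 56718 reads of all 6 libraries. The floor of 3 reads that a count of 0 allows was a share of 0.00672% in wild type and 0.00536% in Tut7-/-, and the exact two-sided intervals at 0 reads reached 0.00827% and 0.00660%. The targeted gene Tut7 and its paralog Tut4 had 0 reads in every library, and the knockout label could not be checked from them. Of 20 genes that mark macrophages, 3 had a read and none reached the minimum, with 3 reads in wild type and 4 in Tut7-/- over the list, and the defining markers Csf1r, Adgre1 and Itgam were at 0. The marker lists of T cells, B cells, neutrophils, fibroblasts and erythroid cells had 0 reads in both libraries. In a pool of amplified targets these lists do not identify the cells.

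Most of the sequenced RNA came from a few genes, and these had almost the same shares in both genotypes. The 7 genes with 1000 or more reads took 95.3% of the wild-type and 95.5% of the Tut7-/- reads, with folds (the share in Tut7-/- over the share in wild type) between 0.890 and 1.22. The 6 genes with 100 or more but fewer than 1000 reads had folds from 0.866 to 1.28. Below 100 reads the folds spread more widely. There, 65 of 102 genes differed by 2-fold or more with a 95% interval that left out 1, against 0 of the 13 genes with 100 or more reads. The 65 include 19 genes at 0 in wild type and 14 at 0 in Tut7-/-. The calls of these genes follow from the minimum of reads over both libraries. Of all 115 genes, 82 had a read in both libraries. The SD of log2 folds, computed with 0.5 read added to each count, was 0.19 over those 13 genes and 3.23 over the 102. The second value includes the genes at 0, whose log2 folds rest on the added 0.5 read. Over the 9 genes with 50 to 99 reads, all with reads in both libraries, it was 0.98. Intervals here are exact binomial ones and cover counting error only, because the PCR reads carried no molecular identifiers to separate copies of 1 molecule. In all, 33 genes (28.7%) had an interval above 1 and 39 (33.9%) an interval below 1, together 72 (62.6%), and 29 (25.2%) and 36 (31.3%) were also 2-fold or more apart, together 65 (56.5%). These percentages are the background for every count of higher or lower genes below.

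**Figure D1:**
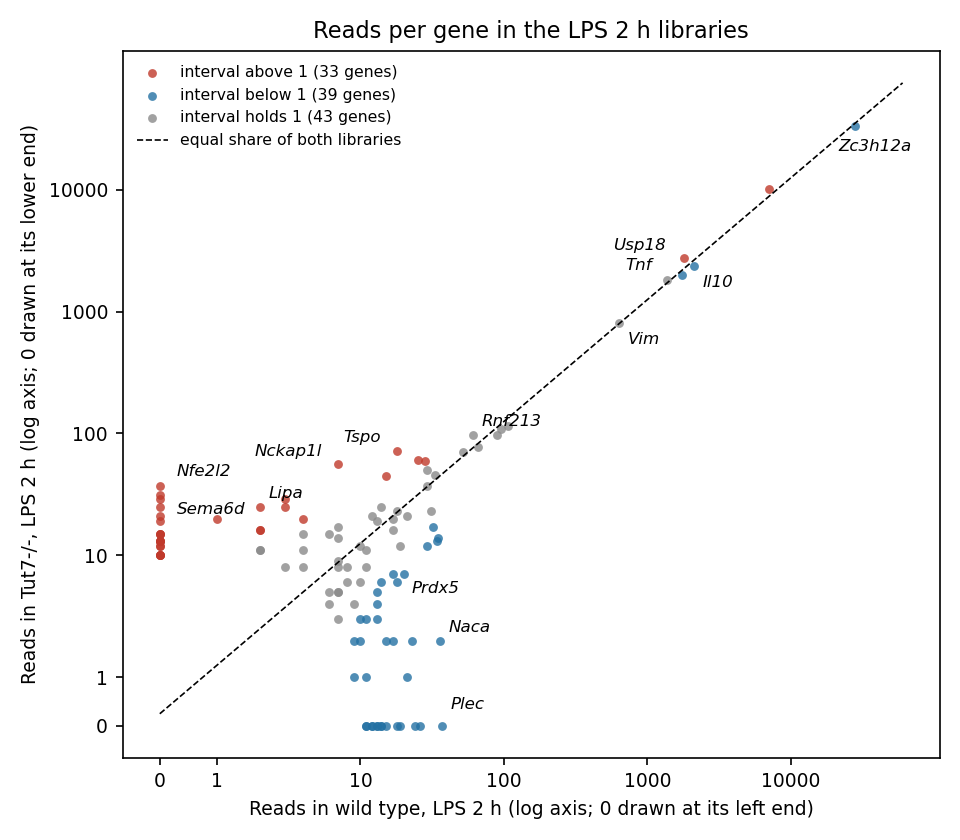
Reads per gene in the Tut7-/- library (vertical, log axis) against the wild-type library (horizontal, log axis) at LPS 2 h, 1 point for each of the 115 genes, with 0 drawn at the ends of the axes. Genes with 100 or more reads lie along the dashed line of equal shares, while genes with few reads scatter to both sides, 19 of them at 0 in wild type and 14 at 0 in Tut7-/-.

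Of the genes the authors' tables label, Zc3h12a and the cytokine genes Il6, Il10 and Tnf had folds between 0.890 and 1.05. Zc3h12a had 27878 reads in wild type and 33593 in Tut7-/-, which was 62.5% (exact Clopper-Pearson interval 62.0% to 62.9%) and 60.1% (59.7% to 60.5%) of the reads. Its fold was 0.962 (0.946 to 0.977). Il6, the inflammatory cytokine interleukin-6, had 1728 and 1991 reads, a fold of 0.919 (0.862 to 0.981). Il10, an anti-inflammatory cytokine, had 2122 and 2367 reads, a fold of 0.890 (0.839 to 0.944). Tnf, tumour necrosis factor, had 1373 and 1809 reads, a fold of 1.05 (0.980 to 1.13) whose interval held 1. Thus 3 of these 4 genes had an interval below 1, with a median log2 ratio of -0.09 against -0.10 over all 115 genes. They are too few to set against the 33.9% lower over all genes.

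The shares of these genes depend on each other, because Zc3h12a alone sets most of the library size. Ratios of one gene to another within a library do not depend on any scaling. Per 1000 Zc3h12a reads, Il6 had 62.0 reads in wild type and 59.3 in Tut7-/-, a ratio of 0.956 (0.895 to 1.02) that held 1. Il10 had 76.1 and 70.5, a ratio of 0.926 (0.871 to 0.984), and Tnf had 49.3 and 53.9, a ratio of 1.09 (1.02 to 1.18). Tnf therefore took a larger part relative to Zc3h12a in the Tut7-/- library and Il10 a smaller one. The ratio of Il6 to Tnf was 0.874 (0.795 to 0.962) times that in wild type, and the ratio of Tnf to Il10 was 1.18 (1.08 to 1.29) times. The ratio of Il6 to Il10, at 1.03 (0.947 to 1.13), held 1.

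The direction given to Zc3h12a, Il6 and Il10 depended on the scaling, which moves the log2 ratios of all genes by the same amount. With TMM factors the log2 ratio of Zc3h12a was -0.01, and its interval held 1, as did that of Il6 at -0.08. With DESeq2 size factors of the 2 libraries, Zc3h12a was at 0.08 and Il6 at 0.02, and Il10 at -0.03 with an interval that held 1. With DESeq2 size factors over all 6 libraries, which rest on 49 genes without a 0 and move every log2 ratio by 0.61, Zc3h12a, Il6 and Il10 were higher, at 0.55, 0.49 and 0.44, and the counts over all genes became 52 higher and 23 lower. The interval of Tnf lay above 1 with TMM factors (log2 0.12), without the 10 most abundant genes (0.10) and with both kinds of DESeq2 size factors (0.21 and 0.68). It held 1 at a log2 ratio of -0.04 when Zc3h12a and Il6 were left out of the library size.

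**Figure D2:**
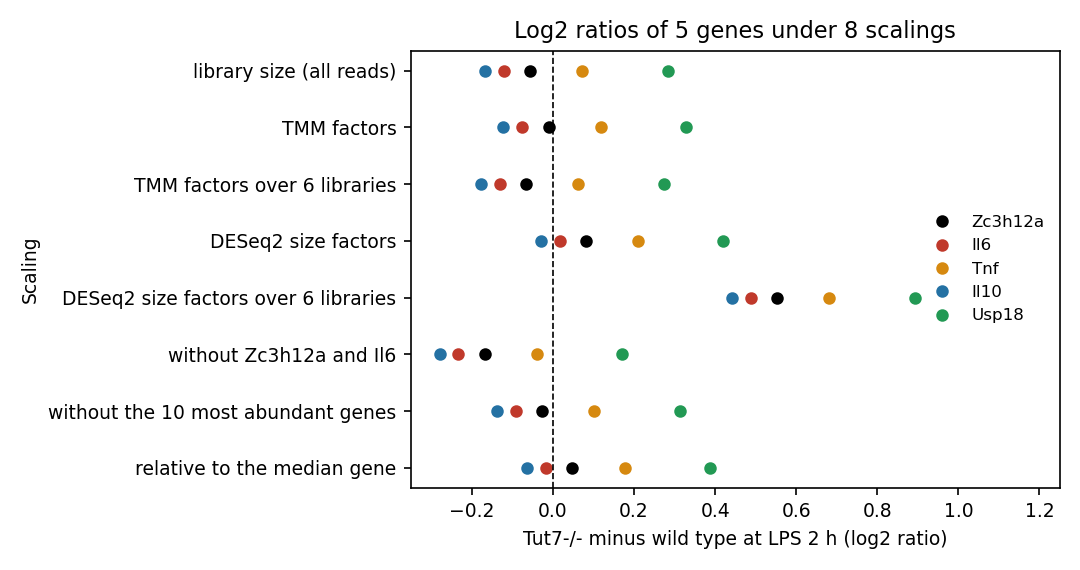
Log2 ratio of Tut7-/- over wild type at LPS 2 h (horizontal) for Zc3h12a, Il6, Tnf, Il10 and Usp18 under 8 scalings (vertical), 1 point for each gene and scaling. A scaling shifts all genes alike, so their order is fixed; Usp18 lies above 0 in all 8 (0.17 to 0.89), while Zc3h12a and Il6 lie on either side of 0 depending on the scaling.

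Of the interferon-induced genes, Usp18 had a larger share in Tut7-/- and Trim30a and Stat2 a smaller one. Usp18, a protease that removes the ubiquitin-like modifier ISG15 and dampens interferon signalling, had 1798 reads (4.03%) in wild type and 2741 (4.90%) in Tut7-/-, a fold of 1.22 (1.15 to 1.29). Per 1000 Zc3h12a reads it had 64.5 and 81.6, a ratio of 1.27 (1.19 to 1.35). Its interval stayed above 1 in all 8 alternatives tried, of which 1, the pseudocount of 2 reads, could not change it. Rnf213, an interferon-induced E3 ubiquitin ligase, had 61 and 98 reads, a fold of 1.28 (0.922 to 1.80) whose interval held 1. At 4 h it had 103 and 246 reads, a fold of 3.11 (2.46 to 3.96). Trim30a, a member of the TRIM family, went the other way, with 32 reads in wild type and 17 in Tut7-/-, a fold of 0.424 (0.221 to 0.786). Stat2, a transcription factor of the type I interferon response, had 10 and 3 reads, a fold of 0.239 (0.0423 to 0.930). Of the 65 genes in the list, 4 were measured, 1 higher and 2 lower, with a median log2 ratio of -0.47, too few to set against the 28.7% and 33.9% over all genes. With DESeq2 size factors of the pair 2 were higher, Usp18 and Rnf213, and 1 was lower, and with those over 6 libraries the interval of Trim30a held 1 at a log2 ratio of -0.61. The adaptors and kinases of Toll-like receptor 4 signalling could not be compared, since 3 of 55 had any read and none reached the minimum.

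**Figure D3:**
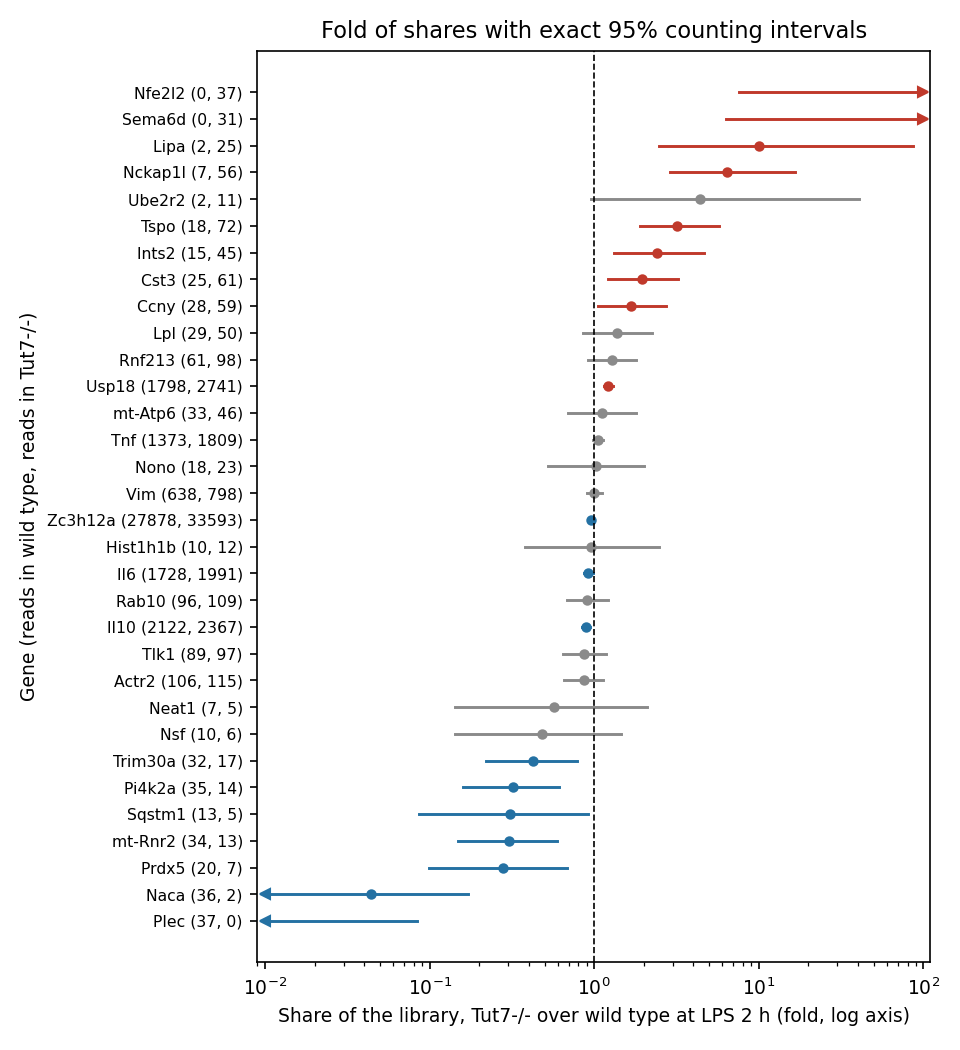
Fold of the share in Tut7-/- over wild type at LPS 2 h (horizontal, log axis) with its 95% counting interval for the 32 genes chosen for description, with their reads in wild type and Tut7-/- beside the names; red intervals lie above 1, blue below 1 and grey hold 1, and arrows mark intervals that run past the axis. Of the 32 intervals 19 leave out 1, narrow and close to 1 for the abundant labelled genes and wide for genes with few reads such as Lipa (2 and 25 reads).

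Of the genes of lysosomes and lipid handling, Tspo and Lipa had larger shares in Tut7-/-. Tspo, a cholesterol-binding protein of the outer mitochondrial membrane, had 18 reads in wild type and 72 in Tut7-/-, a fold of 3.19 (1.88 to 5.69). Lipa, the lysosomal acid lipase that frees cholesterol from its esters, had 2 and 25 reads, a fold of 9.98 (2.49 to 86.9). Lpl, lipoprotein lipase, had 29 and 50 reads, a fold of 1.38 (0.854 to 2.25), and Ctsd, the lysosomal protease cathepsin D, 11 and 11, a fold of 0.798 (0.314 to 2.03), and both intervals held 1. The list thus had 2 of 4 measured genes higher and 0 lower, a median log2 ratio of 1.05, with 60 genes in the list and 10 with a read. These 4 genes are too few to set against the 28.7% higher and 33.9% lower over all genes. Neither Tspo nor Lipa was higher at 4 h, where Lipa had 7 and 5 reads, a fold of 0.930 (0.233 to 3.41), and Tspo a smaller share in Tut7-/-. Lpl was higher in Tut7-/- in Ctrl, at a fold of 1.38 (1.18 to 1.62), and at 4 h, at 2.19 (1.26 to 3.90). Cst3, the secreted inhibitor of lysosomal cysteine proteases cystatin C, which was not on that list, had 25 and 61 reads, a fold of 1.95 (1.20 to 3.24). Among mitochondrial genes Tspo was joined by mt-Rnr2, the mitochondrial large ribosomal RNA, which was lower at 34 and 13 reads, a fold of 0.305 (0.148 to 0.593), and by mt-Atp6, a subunit of ATP synthase, with 33 and 46 reads and a fold of 1.11 (0.696 to 1.80).

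The oxidative stress genes went both ways. Nfe2l2, which encodes NRF2, the transcription factor that switches on antioxidant genes, had 0 reads in wild type and 37 in Tut7-/-, at least 9.84-fold higher when 3 reads are put in place of the 0, with an exact interval, which also counts the error in the Tut7-/- library, that started lower, at 7.61. Prdx5, a peroxiredoxin that reduces peroxides, had 20 and 7 reads, a fold of 0.279 (0.0998 to 0.688). Sqstm1, the autophagy receptor p62, itself induced by NRF2, had 13 and 5 reads, a fold of 0.307 (0.0857 to 0.917). These were the 3 measured genes of the 35 in the list, 1 higher and 2 lower, and each rested on few reads. They are too few to set against the 28.7% higher and 33.9% lower over all genes. With DESeq2 size factors the interval of Sqstm1 held 1.

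Of the cytoskeletal genes, Nckap1l and Myl6 had larger shares in Tut7-/- and Plec and Ahnak smaller ones, each from few reads. Vim, the intermediate filament protein vimentin, had 638 and 798 reads, a fold of 0.998 (0.898 to 1.11). Actr2, the ARP2 subunit of the actin-nucleating Arp2/3 complex, had 106 and 115 reads, a fold of 0.866 (0.659 to 1.14) whose interval held 1. Nckap1l (HEM1), the blood-cell subunit of the WAVE regulatory complex that activates Arp2/3, had 7 and 56 reads, a fold of 6.38 (2.90 to 16.6), and Myl6, a myosin light chain, 3 and 25 reads, a fold of 6.65 (2.03 to 34.4). In contrast, Plec, the cross-linker plectin that ties intermediate filaments to other structures, had 37 and 0 reads, at least 15.5-fold lower by the same floor, with an exact interval of the fold that reached up to 0.0837. Ahnak, a large scaffold protein under the plasma membrane, had 23 and 2 reads, a fold of 0.0694 (0.00793 to 0.281). Of 8 measured genes 2 were higher and 2 lower, no larger a part than over all genes, and Lcp1 (17 and 20 reads) and Anxa2 (7 and 14 reads) had intervals that held 1. In membrane traffic the small GTPase Rab10 had 96 and 109 reads, a fold of 0.906 (0.682 to 1.21), and Nsf, the ATPase that takes SNARE complexes apart, had 10 and 6 reads, a fold of 0.479 (0.143 to 1.45).

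Of the translation genes only Naca was measured. Naca, a subunit of the complex that binds nascent chains at the ribosome, had 36 reads in wild type and 2 in Tut7-/-, a fold of 0.0443 (0.00517 to 0.172). Over all 30 genes of that list the reads were 45 and 5. In the list of nuclear RNA and chromatin, Tlk1, a kinase of chromatin assembly, had 89 and 97 reads, a fold of 0.870 (0.646 to 1.17), and the paraspeckle components Nono (18 and 23 reads) and Neat1 (7 and 5 reads) also had intervals that held 1. Top2a, the DNA topoisomerase of dividing cells, had 0 and 10 reads, at least 2.66-fold higher by that floor with an exact interval from 1.79. The linker histone gene Hist1h1b had 10 and 12 reads, a fold of 0.958 (0.379 to 2.47). Among ubiquitin genes, besides Usp18 and Rnf213, Birc6, an E2 and E3 hybrid that inhibits apoptosis, had 0 and 10 reads, and Ube2r2, an E2 enzyme, had 2 and 11 reads, a fold of 4.39 (0.958 to 40.75). Zc3h12a was the only measured gene of 54 with roles in RNA tailing and decay.

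The other large differences had no common list. On the higher side, Ccny, a membrane-bound cyclin, had 28 and 59 reads, a fold of 1.68 (1.06 to 2.74) whose interval held 1 when Zc3h12a and Il6 were left out of the library size. Ints2, a subunit of the Integrator complex that processes small nuclear RNAs, had 15 and 45 reads, a fold of 2.39 (1.31 to 4.62). Sema6d, a transmembrane semaphorin, had 0 and 31 reads, at least 8.25-fold higher by that floor with an exact interval from 6.32, and had no read in the other 4 libraries. On the lower side, Pi4k2a, which makes phosphatidylinositol 4-phosphate on endosomes and the Golgi, had 35 and 14 reads, a fold of 0.319 (0.159 to 0.608). These genes were joined by Usp18, Tspo, Cst3, Nckap1l and Nfe2l2 above and by Naca, Plec, mt-Rnr2, Trim30a, Il10, Il6 and Zc3h12a below. Together they were all 8 higher and 8 lower genes reported here whose interval left out 1 and whose higher library held at least 30 reads. Fewer than 12 qualified on either side, so none was chosen by its size of difference. The folds of Il10, Il6 and Zc3h12a, at 0.890, 0.919 and 0.962, were close to 1, and their direction depended on the scaling.

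Genes with reads in only 1 of the 2 libraries made up 33 of the 72 whose interval left out 1. These calls follow from the minimum of 10 reads over both libraries. Any gene that reaches it with 0 reads in 1 library has an interval that leaves out 1, as Anapc7 at 0 and 10 reads had from 1.79. The 33 are therefore no separate result, and they are part of the background percentages. There were 19 with 0 reads in wild type, with a median of 13.0 and a maximum of 37 reads in Tut7-/-, and 14 with 0 reads in Tut7-/-, with a median of 14.0 and a maximum of 37 reads in wild type. A 0 in 1 library did not mean that the genotype lacked the transcript. Of the 19 genes at 0 in wild type at 2 h, 10 had a read in wild type at another time, and 6 of these had 10 or more in a wild-type library. Cbfa2t2, a transcriptional corepressor, is an example, with 0 and 29 reads at 2 h but 49 in wild-type Ctrl. That wild-type read count is from untreated cells, and at 4 h of LPS the gene again had 0 reads in wild type, against 22 in Tut7-/-. Of the 14 genes at 0 in Tut7-/-, 5 had a read in Tut7-/- at another time, among them Acer3, an alkaline ceramidase, with 26 and 0 reads at 2 h and 33 reads in Tut7-/- Ctrl, and Phrf1, with 24 and 0 reads at 2 h and 32 reads in Tut7-/- at 4 h. In each set 7 genes had no read in the other 4 libraries. Just below the minimum, Taok3 had 0 and 9 reads and Kif2c 9 and 0, and just at it Top2a had 0 and 10 and Rab3d 9 and 1.

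The same comparison in Ctrl and at 4 h used other libraries, so its values stand beside those at 2 h as separate measurements. Of the 33 genes higher at 2 h, 18 were measured in Ctrl, with 7 higher and 4 lower there, and 13 at 4 h, with 5 higher and 4 lower. Of the 39 genes lower at 2 h, 21 were measured in Ctrl, with 5 higher and 4 lower, and 15 at 4 h, with 6 higher and 3 lower. Over all genes the background was 38.7% higher and 26.2% lower in Ctrl, and 41.2% and 28.9% at 4 h.

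Usp18 was the only gene whose interval lay on the same side of 1 at all 3 times, but most genes could not be followed. Of the 33 genes higher at 2 h, 10 were measured at both other times, and of the 39 lower, 13. A single gene among these is too few to set against the 38.7% higher in Ctrl and 41.2% at 4 h over all genes. The reads of Usp18 in wild type and Tut7-/- were 133 and 148 in Ctrl, 1798 and 2741 at 2 h, and 2738 and 2278 at 4 h, with folds of 1.35 (1.06 to 1.72), 1.22 and 1.08 (1.02 to 1.15). This rested on the library size at the outer times: with TMM factors its log2 ratio was 0.28 in Ctrl, with an interval that held 1, and -0.17 at 4 h. Relative to Zc3h12a, the ratio between genotypes was 1.48 (1.17 to 1.87) in Ctrl, 1.27 at 2 h and 1.06 (0.999 to 1.12) at 4 h. No scaling enters those 3 values.

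Relative to Zc3h12a, Tnf and Il10 had larger ratios between genotypes at 4 h than at 2 h, and Il6 did not. Tnf had 826 and 956 reads at 4 h, and 40.98 reads per 1000 Zc3h12a reads in Tut7-/- against 27.8 in wild type, a ratio of 1.47 (1.34 to 1.62) where 2 h had given 1.09. Il10 had 3501 and 3563 reads at 4 h, and its ratio to Zc3h12a, 0.926 at 2 h, was 1.30 (1.23 to 1.36). In Ctrl the ratios to Zc3h12a were 0.940 (0.744 to 1.19) for Tnf and 0.965 (0.826 to 1.13) for Il10, and both intervals held 1. The share of Zc3h12a itself had a fold of 0.917 (0.893 to 0.942) in Ctrl and 1.02 (1.01 to 1.04) at 4 h. Relative to Usp18, Il10 was at 0.732 (0.673 to 0.795) times wild type at 2 h and 1.22 (1.14 to 1.32) times at 4 h, and Tnf at 0.864 (0.788 to 0.948) and 1.39 (1.248 to 1.55) times. Il6 had 2925 and 2141 reads at 4 h, with a ratio to Zc3h12a of 0.931 (0.879 to 0.987), near the 0.956 at 2 h. The ratio of Il6 to Tnf was thus lower in Tut7-/- at both times, by 0.874 times at 2 h and 0.632 (0.567 to 0.705) times at 4 h. Vim had 3760 and 2097 reads in Ctrl, a fold of 0.678 (0.642 to 0.715), and 620 and 812 at 4 h, a fold of 1.71 (1.53 to 1.90), with the equal shares of 2 h between them.

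**Figure D4:**
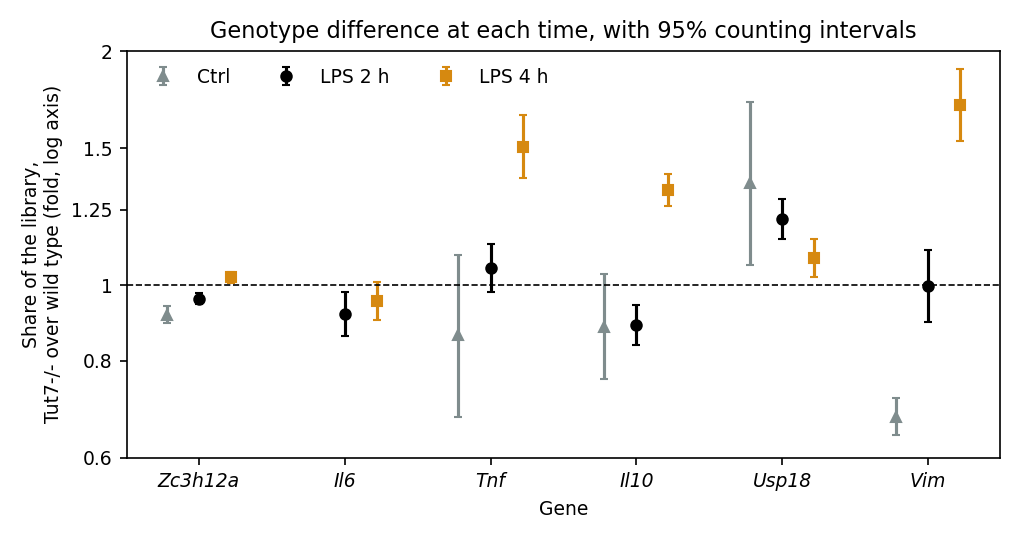
Fold of the share in Tut7-/- over wild type (vertical, log axis) for 6 genes in Ctrl (triangles), at LPS 2 h (circles) and at LPS 4 h (squares), with 95% counting intervals; Il6 has no Ctrl point because its Ctrl libraries held 0 and 2 reads. At 2 h the 6 genes lie between 0.890 and 1.22, and the folds at the other times run from 0.678 (Vim, Ctrl) to 1.71 (Vim, LPS 4 h).

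Several sparse genes changed sides between times. Tspo, higher at 2 h, had 138 reads in wild type and 44 in Tut7-/- at 4 h, a fold of 0.415 (0.289 to 0.587). Nckap1l had 36 and 0 reads at 4 h. Prdx5, lower at 2 h, had 10 and 28 reads in Ctrl, a fold of 3.40 (1.60 to 7.85). By contrast Cst3 and Ints2 were higher in Tut7-/- in Ctrl as well, at folds of 3.11 (1.96 to 5.04) and 3.26 (1.89 to 5.85), while their intervals held 1 at 4 h, with 16 and 16 reads for Cst3 and 27 and 27 for Ints2. Tspo was also higher in Ctrl, at a fold of 1.61 (1.01 to 2.59). Ccny and Myl6 were higher at 4 h, at 7.82 (4.41 to 14.9) and 19.5 (3.01 to 823), while their intervals held 1 in Ctrl.

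A test of genotype was possible only across the times, with an additive model of time and genotype over all 6 libraries and 2 residual degrees of freedom. It called 0 of 115 genes (0.0%), with a smallest adjusted p of 0.964 (edgeR quasi-likelihood test, Benjamini-Hochberg adjustment) and 2 genes below an unadjusted p of 0.05. The Wald test of DESeq2 called 0 as well, with 6 genes below that value before adjustment. The log2 genotype term was -0.05 ± 0.17 (SE) for Zc3h12a, 0.13 ± 0.39 for Il6, 0.02 ± 0.22 for Il10, 0.15 ± 0.26 for Tnf and 0.28 ± 0.21 for Usp18. The common dispersion was 0.859, and the spread it describes is the departure of the 6 libraries from additivity rather than the spread between mice. With that dispersion even Tmem220, at a log2 genotype term of 5.08, was not called. The 0 calls therefore do not show that the genotypes are alike. Of the genes measured at 2 h, 75 were among those the model tested.

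Some counts are uncertain because of shared sequence. Whether counting used strand is not stated in the labels or methods, and 38 of the 115 genes had an exon that overlapped an exon of another gene, 29 of them on the opposite strand. Among the genes named above, Usp18, Rab10, Tlk1, Rnf213, Tspo, Ints2, Lcp1, Prdx5, Phrf1, Anxa2, Sqstm1 and Birc6 overlap a gene on the opposite strand, and Plec, mt-Atp6, Ctsd, Neat1 and Top2a overlap a gene on their own strand. Reads of Naca, the histone gene and mt-Rnr2 may also be shared with near-identical copies.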

How the data were processed

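Gene-specific TAIL-seq libraries of BMDMs were used, 1 per genotype and time. The authors deposited raw read counts per Ensembl gene, aligned with HISAT2 to mm10. Not given in the sources used here are the counter, tool versions, strand use and any removal of PCR duplicates. From a deposited list of Il6 reads, of unit other, only the primer was read, which started 1709 of its 1756 lines (45 were empty). All 964 identifiers with a read matched GENCODE M21 without their version suffix (935 with it).

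Counts were divided by the sum of all gene counts in the library. Folds are ratios of shares with exact conditional binomial 95% intervals, and log2 ratios add 0.5 read to each count. With 1 library per side no test was made for the pair. The additive model was fitted with edgeR 4.0.16 (glmQLFit, glmQLFTest; R 4.3.3) after filterByExpr (minimum count 10, total 15), and with DESeq2 1.42.0, with an adjusted p threshold of 0.05. The interval and the model were tested on simulated data. Ratios of 2 genes within a library had intervals on the log scale of their 4 counts.

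Groups came from the sample titles. Alternatives were TMM factors, DESeq2 size factors, ratios relative to the median gene, library sizes that left out the 10 most abundant genes or Zc3h12a with Il6, a pseudocount of 2 reads, no filter or a minimum of 50 reads, and factors over all 6 libraries, the last added after seeing the data. The members and the 20 gene lists were chosen with earlier results of these data known. Named genes were those the tables label, the 5 most abundant, genes at 0 in 1 library with 30 or more in the other, and the 3 members of each list with most reads. Up to 12 higher and 12 lower genes whose higher library held at least 30 reads were added. They were ranked by the interval limit nearest to 1, and fewer qualified on each side, so all were taken. Cbfa2t2, Acer3, Phrf1, Taok3, Kif2c and further list members were named after their values were seen. A labelled gene is not reported here, and counts of labelled genes leave it out.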

Additional observations from a re-analysis of the deposited data

Results flagged for a closer look

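For 6 of the 32 genes chosen by the naming rule, the interval lay on one side of 1 at 2 h and on the other side at another time, and the difference was not tested. Zc3h12a had a log2 ratio of -0.057 at 2 h and 0.03 at 4 h, but -0.25 at 4 h with TMM factors. Il10 was at -0.17 at 2 h and 0.41 at 4 h, and at 0.12 at 4 h with TMM factors. Tspo was at 1.64 at 2 h and -1.26 at 4 h, with 18 and 72 reads against 138 and 44 in wild type and Tut7-/-. Nckap1l was at 2.59 at 2 h and -5.81 at 4 h, the latter from 36 reads against 0, so that its size depends on the pseudocount. Nfe2l2 was at 5.90 at 2 h, from 0 reads against 37, and at -4.11 in Ctrl, from 10 reads against 0. Prdx5 was at -1.78 at 2 h and 1.72 in Ctrl. Of the other genes the text names, 4 also changed sides: Ahnak, lower at 2 h, had a fold of 2.86 (1.59 to 5.38) in Ctrl, Acer3, lower at 2 h, 20.1 (5.13 to 172.5) in Ctrl, Phrf1, lower at 2 h, 20.8 (5.32 to 179.5) at 4 h, and 4930589L23Rik, higher at 2 h, 0.683 (0.550 to 0.846) in Ctrl. Each value compares single libraries.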

How the results depend on the processing

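The number of genes higher in Tut7-/- at 2 h ranged from 32 to 39 and the number lower from 33 to 40 under TMM factors, DESeq2 size factors of the pair, both reduced library sizes and ratios to the median gene. DESeq2 size factors over all 6 libraries gave 52 higher and 23 lower, and 23 lower by 2-fold or more. Without a filter there were 51 higher and 60 lower, and 47 and 57 by 2-fold or more, since more genes are counted. With a minimum of 50 reads there were 7 higher and 3 lower, and 3 and 0 by 2-fold or more. At 2 h Zc3h12a turned to 0.081 with DESeq2 size factors, 0.048 relative to the median gene and 0.55 with factors over 6 libraries, Il6 to 0.016 and 0.49 with the 2 kinds of DESeq2 factors, and Il10 to 0.44 with those over 6 libraries. At 4 h Zc3h12a turned to -0.25 and Usp18 to -0.17 with TMM factors, and to -0.21 and -0.13 without the 10 most abundant genes. The cause was not tested. Of the 19 named genes whose interval left out 1, 12 kept their call in all 8 alternatives, and of the 13 whose interval held 1, 5 did. The pseudocount of 2 reads, 1 of these 8, does not enter the intervals and could not change a call. The 4 labelled genes described went from 0 higher and 3 lower to 1 and 1 with TMM factors and 2 and 0 with DESeq2 size factors. The genotype model called 0 genes with TMM factors, and 0 of 83 genes without the 2 h libraries (edgeR, 2 and 4 genes at an unadjusted p under 0.05). No paired analysis was possible because each group had 1 library and the labels give no replicate numbers. Depth limits what the sparse genes can show: a gene near the minimum needs almost all its reads in 1 library for its interval to leave out 1.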

Other observations

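Among the genes measured at 2 h, 15 were not protein-coding. The ribosomal RNA CT010467.1, which remained after rRNA depletion, had 66 reads in wild type and 77 in Tut7-/-, a fold of 0.931 (0.661 to 1.31), and Gm43430, annotated as TEC, a class of transcripts that awaits experimental evidence, had 52 and 71, a fold of 1.09 (0.751 to 1.59). The antisense RNA Gm15133 had 1 and 20 reads, a fold of 15.96 (2.55 to 661.5), with 21 and 13 at 4 h and none in Ctrl. The intergenic RNA 4930589L23Rik had 4 and 20 reads, a fold of 3.99 (1.34 to 16.1), against 242 and 136 in Ctrl.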
